A study of Mus musculus with 4 samples.

Results

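Integrins are the main adhesion receptors of lymphocytes, and 10 genes that encode their subunits were examined in mouse cells from spleen and lymph node. The 10 are the alpha subunits Itgal, Itga4, Itgae, Itgav, Itgax and Itga1 and the beta subunits Itgb7, Itgb2, Itgb1 and Itgb3. They were taken by name from the 50686 genes in the count tables, by a rule that uses no measured value but was set with earlier results of these data known. All 10 passed the filter on low counts that left 15394 genes for testing. The 4 groups were Yap KO stimulated, WT stimulated, Yap KO unstimulated and WT unstimulated, with 1 library of RNA from cultured cells in each. The titles of both stimulated libraries carry the number 24 with no unit. No source used here names the stimulus, the cell type, the deleted exons of Yap, a Cre driver or the number and age of the animals. All 4 titles share the replicate number 1, and genotype and cell source cannot be told apart.

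An integrin is a dimer of 1 alpha and 1 beta chain, and a chain reaches the cell surface only with a partner. Circulating T cells hold their integrins in a low-affinity form, and chemokine or antigen receptor signals switch them through the small GTPase Rap1, talin and kindlin, a step called inside-out activation. The alpha-L and beta-2 chains form LFA-1, which binds ICAM molecules on other cells. The alpha-4 chain pairs with beta-7 to bind MAdCAM-1 on gut vessels and with beta-1 to bind VCAM-1 and fibronectin. The alpha-E and beta-7 chains form the receptor for E-cadherin that holds T cells in epithelia, and alpha-1 with beta-1 binds collagen. The alpha-v chain pairs with beta-3, beta-1 and other beta chains and binds vitronectin and latent TGF-beta.

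Reads in genes numbered 19935523 in Yap KO stimulated, 20976343 in WT stimulated, 25419974 in Yap KO unstimulated and 22088392 in WT unstimulated cells. Yap1 had 2, 3, 0 and 1 reads in that order, none above the floor of 3 counts, and these reads do not allow a check of the genotype labels. The 4 T cell markers summed to 1052 CPM (read counts scaled to the depth of the library) in Yap KO stimulated, 1111 in WT stimulated, 3535 in Yap KO unstimulated and 3229 in WT unstimulated cells. All 4 were called lower after stimulation, beside 34.1% of all tested genes. Both CD8 chains together ran from 521 to 2295 CPM, and Cd4 had at most 3 reads in any library. In bulk RNA, fewer cells of a type and less RNA per cell cannot be told apart. All values in CPM were scaled by the trimmed mean of M values (TMM).

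Promoters of 4 genes are shown because their genes moved in opposite directions after stimulation: Itga4 and Itgb7, which form 1 dimer and were lower, and Itgav and Itgb1, which were higher. Each run is the 250 bases before the gene's start from RefSeq on GRCm38.p6, 5′ to 3′ on the gene's strand. Capitals mark matches, on either strand, to 6 motifs: GGAATG (TEAD, the factors that Yap binds), TGTGGT (RUNX), CGGAAG (ETS), GGGCGG (SP), CCACCC (KLF) and GTCTGG (SMAD).
Itga4 promoter, chr2:79255176-79255425, plus strand: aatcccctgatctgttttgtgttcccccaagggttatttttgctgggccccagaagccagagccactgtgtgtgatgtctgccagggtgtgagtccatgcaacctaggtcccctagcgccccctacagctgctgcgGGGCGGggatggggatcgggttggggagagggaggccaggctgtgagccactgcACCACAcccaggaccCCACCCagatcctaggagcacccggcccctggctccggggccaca
Itgb7 promoter, chr15:102231936-102232185, minus strand: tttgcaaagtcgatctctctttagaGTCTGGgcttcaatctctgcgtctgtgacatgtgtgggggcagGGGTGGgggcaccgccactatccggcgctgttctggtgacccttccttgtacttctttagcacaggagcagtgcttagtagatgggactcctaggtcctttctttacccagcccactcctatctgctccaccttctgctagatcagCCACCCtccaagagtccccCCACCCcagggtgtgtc
Itgav promoter, chr2:83724147-83724396, plus strand: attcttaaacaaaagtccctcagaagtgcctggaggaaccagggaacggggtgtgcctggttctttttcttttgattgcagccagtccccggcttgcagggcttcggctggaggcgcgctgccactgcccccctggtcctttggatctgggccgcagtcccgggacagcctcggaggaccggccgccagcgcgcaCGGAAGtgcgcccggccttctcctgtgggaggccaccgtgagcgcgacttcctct
Itgb1 promoter, chr8:128685404-128685653, plus strand: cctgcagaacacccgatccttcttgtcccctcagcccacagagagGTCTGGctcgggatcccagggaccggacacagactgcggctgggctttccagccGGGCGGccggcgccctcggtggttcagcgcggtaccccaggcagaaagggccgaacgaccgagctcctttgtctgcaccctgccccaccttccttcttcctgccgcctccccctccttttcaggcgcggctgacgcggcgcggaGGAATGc

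The Itga4 window held an SP match 114 bases, a RUNX match 60 bases and a KLF match 45 bases before the start, counted to the first base of the match. The Itgb7 window held a SMAD match 225 bases and KLF matches 182, 36 and 17 bases before the start. The Itgav window held 1 ETS match at 55 bases, and the Itgb1 window held SMAD, SP and TEAD matches at 205, 151 and 7 bases. No matches overlapped in these 4 windows. Such short motifs are common: of 32851 RefSeq promoters of the same length, 12.6% held the TEAD, 14.0% the RUNX, 13.6% the ETS, 32.7% the SP, 28.1% the KLF and 14.7% the SMAD motif. A match is a description of the letters and does not show a bound site. RefSeq windows were matched for 6 of the 10 genes, and those of Itgax and Itga1 held none of the 6 motifs.

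After stimulation 2 of the 10 integrin genes rose, Itgb1 and Itgav, and the other 8 fell, in edgeR's quasi-likelihood test at a Benjamini-Hochberg adjusted p of 0.05. Over all tested genes 33.3% were called higher and 34.1% lower in this comparison. The median log2 change of the 10 genes was -1.99, beside -0.05 over all tested genes. The fit held genotype and state as additive terms and had 1 residual degree of freedom, and any difference of the change between genotypes enters its error.

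**Figure D1:**
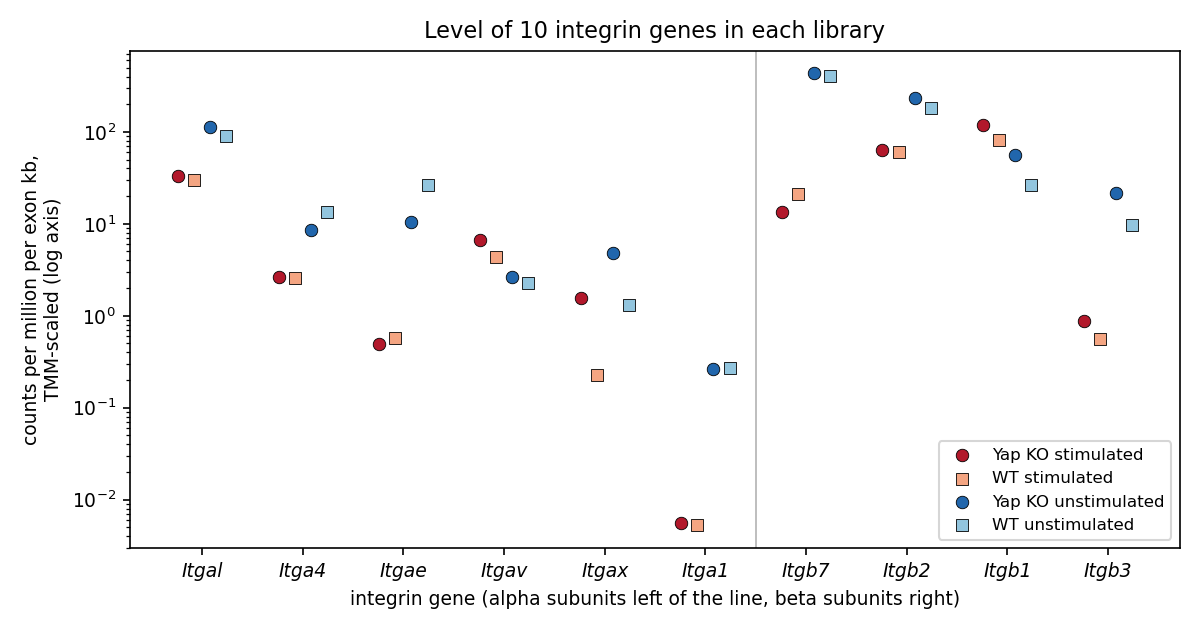
The plot gives the level of each integrin gene in each of the 4 libraries, as TMM-scaled CPM per kilobase of exon on a log axis, with 1 point per library and no error bars. Itgb7 stands highest in both unstimulated libraries at 433 and 403, and Itgb1 stands highest in both stimulated libraries at 120.2 and 82.3.

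The beta-7 gene Itgb7 (ENSMUSG00000001281, chromosome 15 from 102215995 to 102231944, minus strand, GRCm38) had the highest level of the 10 genes per exon kilobase in both unstimulated libraries and fell after stimulation. Its level was 36.8 CPM in Yap KO stimulated and 58.5 CPM in WT stimulated cells, against 1200.3 CPM in Yap KO unstimulated and 1115 CPM in WT unstimulated cells. Both stimulated libraries lay far below both unstimulated ones, 32.5-fold lower in Yap KO and 19.1-fold lower in WT cells. The log2 fold change was -4.64 ± 0.21 (SE of the fit, edgeR adjusted p = 1.77e-07).

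Its partner Itgae (ENSMUSG00000005947, chromosome 11 from 73090583 to 73147446), known as CD103, fell too, 20.5-fold in Yap KO and 45.3-fold in WT cells. It had 44 reads (2.28 CPM) in Yap KO stimulated and 53 reads (2.59 CPM) in WT stimulated cells, against 1258 reads (48.4 CPM) in Yap KO unstimulated and 2787 reads (122 CPM) in WT unstimulated cells. The log2 fold change was -5.03 ± 0.26 (edgeR adjusted p = 4.13e-07). Expression of CD103 is known to be raised by TGF-beta in T cells.

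The alpha-4 gene Itga4 (ENSMUSG00000027009, chromosome 2 from 79255426 to 79333123), which pairs with either beta-7 or beta-1, fell less than Itgb7. It had 36.7 CPM in Yap KO stimulated and 35.8 CPM in WT stimulated cells, against 120.1 CPM in Yap KO unstimulated and 188 CPM in WT unstimulated cells. The stimulated libraries lay close together and below both unstimulated libraries, with a log2 fold change of -2.05 ± 0.17 (edgeR adjusted p = 7.56e-06). Of its exon bases, 8.04% lie opposite exons of Cerkl, which had 77, 99, 403 and 501 reads in the same order of libraries, and the strand setting of the counting is not given in the sources used here.

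The LFA-1 chains Itgal (ENSMUSG00000030830, chromosome 7 from 127296260 to 127335138) and Itgb2 (ENSMUSG00000000290, chromosome 10 from 77530252 to 77565708) fell by similar factors. Itgal had 218 CPM in Yap KO stimulated and 197 CPM in WT stimulated cells, against 746 CPM in Yap KO unstimulated and 599 CPM in WT unstimulated cells (log2 fold change -1.69 ± 0.13, edgeR adjusted p = 3.42e-06). Itgb2 had 196 CPM in Yap KO stimulated and 185 CPM in WT stimulated cells, against 709 CPM in Yap KO unstimulated and 556 CPM in WT unstimulated cells (log2 fold change -1.72 ± 0.13, edgeR adjusted p = 3.82e-06). Both genes lost less than Itgb7 or Itgae.

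The beta-1 gene Itgb1 (ENSMUSG00000025809, chromosome 8 from 128685654 to 128733200) encodes the beta chain with the most alpha partners, and it rose. It had 491 CPM in Yap KO stimulated and 336 CPM in WT stimulated cells, against 227 CPM in Yap KO unstimulated and 107 CPM in WT unstimulated cells. Both stimulated libraries lay above both unstimulated ones, with a log2 fold change of 1.38 ± 0.15 (edgeR adjusted p = 3.96e-05). The alpha-v gene Itgav (ENSMUSG00000027087, chromosome 2 from 83724397 to 83806916) rose as well. It had 71.8 CPM in Yap KO stimulated and 47.1 CPM in WT stimulated cells, against 28.7 CPM in Yap KO unstimulated and 24.4 CPM in WT unstimulated cells (log2 fold change 1.14 ± 0.15, edgeR adjusted p = 0.000156). Of its exon bases, 5.90% lie opposite Gm13684, which had 39 reads or fewer in every library.

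The beta-3 gene Itgb3 (ENSMUSG00000020689, chromosome 11 from 104608000 to 104670476), a partner of alpha-v, moved the other way. It had 99 reads (5.13 CPM) in Yap KO stimulated and 68 reads (3.33 CPM) in WT stimulated cells, against 3323 reads (128 CPM) in Yap KO unstimulated and 1329 reads (58.0 CPM) in WT unstimulated cells. The log2 fold change was -4.40 ± 0.19 (edgeR adjusted p = 1.46e-07). Beta-3 with alpha-IIb is the fibrinogen receptor of platelets, and the 7 platelet markers, Itga2b among them, summed to 0.518, 0.587, 0.962 and 0.960 CPM in Yap KO stimulated, WT stimulated, Yap KO unstimulated and WT unstimulated cells. Pf4, Gp1bb and Gp6 had 0 reads in all 4 libraries. Of the stromal and endothelial markers Cdh5 was at 0, and Pecam1 had 193 and 227 reads in the Yap KO and WT stimulated cells, against 3065 and 3567 reads in the Yap KO and WT unstimulated cells. Col1a2 had 3 and 0 reads in the Yap KO and WT stimulated cells, against 44 and 0 reads in the Yap KO and WT unstimulated cells, and Pdgfra had at most 1 read. The sum of these 4 markers was 10.2, 11.1, 120 and 156 CPM in Yap KO stimulated, WT stimulated, Yap KO unstimulated and WT unstimulated cells. Pecam1 held nearly all of this sum in every library. The part of these markers in the Itgb3 decrease was not tested.

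Itgax and Itga1 fell as well, and Itga1 had the lowest level of the 10 genes per exon kilobase in every library. Itgax (ENSMUSG00000030789, chromosome 7 from 128129547 to 128150657), known as CD11c and used as a marker of dendritic cells, had 143 reads in Yap KO stimulated and 22 reads in WT stimulated cells, against 607 reads in Yap KO unstimulated and 144 reads in WT unstimulated cells (log2 fold change -1.93 ± 0.27, edgeR adjusted p = 0.000208). Its libraries overlapped across states in CPM, since the Yap KO stimulated library at 7.41 CPM lay above the WT unstimulated library at 6.28 CPM. Of its 31-base words, 10.7% also occur in another gene. The 11 dendritic and myeloid markers summed to 49.3, 32.3, 46.7 and 34.2 CPM in Yap KO stimulated, WT stimulated, Yap KO unstimulated and WT unstimulated cells. Of these 11, 8 were lower in the stimulated library of both genotypes. Only 6 passed the filter, and 3 were called lower and 1 higher, beside 34.1% and 33.3% of all tested genes. The part of these markers in the Itgax result was not tested.

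Itga1 (ENSMUSG00000042284, chromosome 13 from 114953096 to 115101964, minus strand), the collagen receptor chain, had 2 reads in each stimulated library, against 128 reads in Yap KO unstimulated and 116 reads in WT unstimulated cells. The stimulated counts lay under the floor of 3 counts. The log2 ratio of stimulated over unstimulated was -4.69 in Yap KO cells (95% counting interval -8.63 to -3.69) and -4.78 in WT cells (-8.75 to -3.81), and the gene was called lower (edgeR adjusted p = 1.53e-05).

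**Figure D2:**
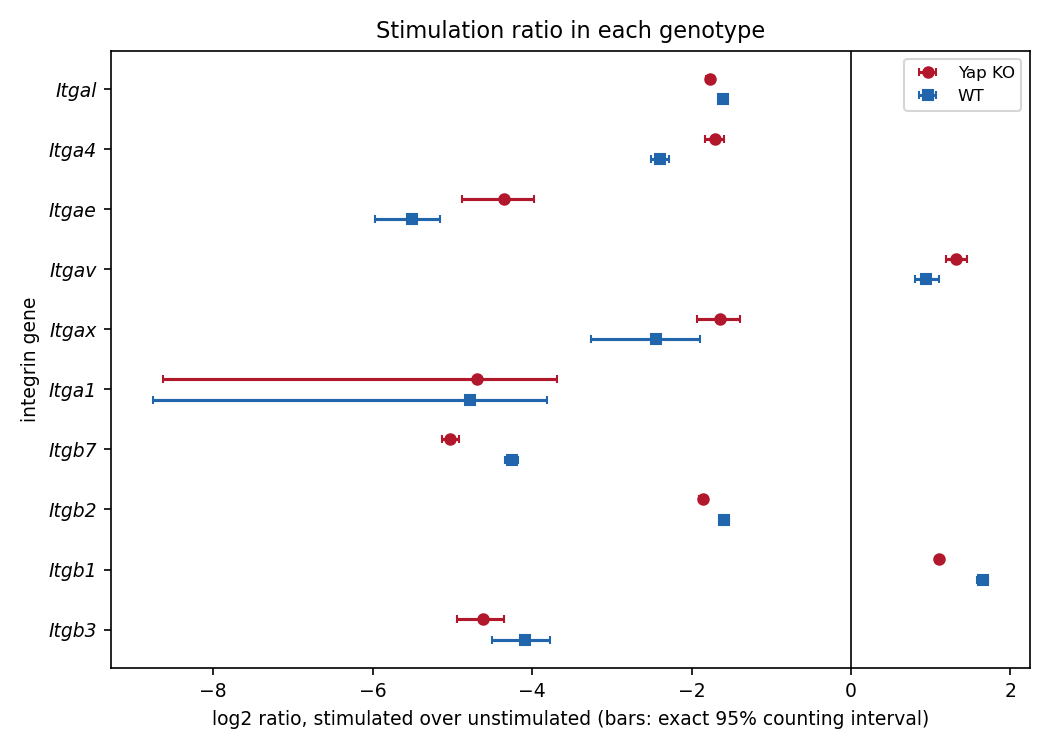
The plot gives, for each integrin gene, the log2 ratio of stimulated over unstimulated in Yap KO and in WT cells, with bars for exact 95% counting intervals. Itgb1 and Itgav lie right of 0 in both genotypes, and the other 8 genes lie left of 0 in both.

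Set against each other per kilobase of exon, the subunit genes changed places after stimulation. Summed over the 9 beta genes of the mouse in the tables, Itgb1 made up 60.5% in Yap KO stimulated and 50.02% in WT stimulated cells, against 7.49% in Yap KO unstimulated and 4.22% in WT unstimulated cells. Itgb7 showed the reverse, with 6.69% in Yap KO stimulated and 12.8% in WT stimulated cells, against 58.3% in Yap KO unstimulated and 64.9% in WT unstimulated cells. Itgb1 was thus first among beta genes in both stimulated libraries and the third in both unstimulated ones, and Itgb7 the third in both stimulated libraries and first in both unstimulated ones. Itgb2 kept a share of 32.3%, 36.8%, 31.3% and 29.3% in Yap KO stimulated, WT stimulated, Yap KO unstimulated and WT unstimulated cells.

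Among the 18 alpha genes, Itgal was first in every library, with shares of 66.2% in Yap KO stimulated and 68.8% in WT stimulated cells, against 73.9% in Yap KO unstimulated and 61.4% in WT unstimulated cells. By union exon length, Itgav came next in both stimulated libraries, at 13.3% in Yap KO and 10.1% in WT cells, against 1.74% in Yap KO unstimulated and 1.53% in WT unstimulated cells. Itgae held that place in both unstimulated libraries by the same length. Its share was 0.990% in Yap KO stimulated and 1.30% in WT stimulated cells, against 6.88% in Yap KO unstimulated and 17.9% in WT unstimulated cells. By the length of the longest coding transcript, Itga6 was above Itgav in WT stimulated cells, at 11.6% and 11.3%, and above Itgae in Yap KO unstimulated cells, at 9.42% and 6.25%. These shares are ratios of levels within a library and come with no replicate error.

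**Figure D3:**
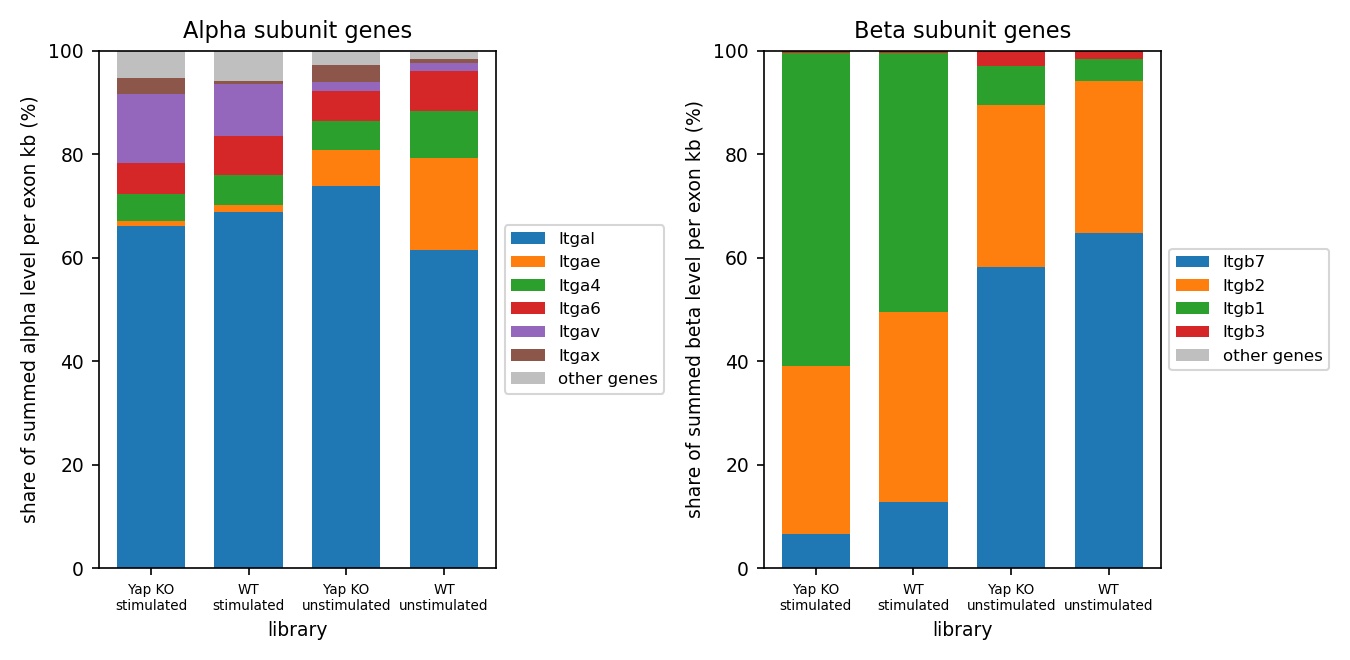
Stacked bars give each gene's share of the summed level per exon kilobase, in percent, for 18 alpha genes (left) and 9 beta genes (right) in the 4 libraries. In the right panel the Itgb1 part covers 60.5% and 50.02% of the stimulated bars, against 7.49% and 4.22% of the unstimulated bars, while the Itgb2 part stays between 29.3% and 36.8%.

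The summed level of all alpha genes was 50.3 CPM per kilobase in Yap KO stimulated and 43.5 in WT stimulated cells, against 154 in Yap KO unstimulated and 149 in WT unstimulated cells. Stimulated cells thus held 32.7% of the unstimulated alpha level in Yap KO and 29.3% in WT cells. For the beta genes they held 26.7% in Yap KO and 26.5% in WT cells, and without Itgb7 59.8% and 65.8%. Alpha and beta totals therefore fell to similar shares, and most of the beta decrease was in Itgb7.

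Ratios between known partners differed in how they moved. The level of Itgal over that of Itgb2, per exon kilobase, was 0.518 in Yap KO stimulated and 0.495 in WT stimulated cells, against 0.488 in Yap KO unstimulated and 0.501 in WT unstimulated cells. These 4 ratios lay within a narrow range although both genes fell. The ratio of Itgav to Itgb3 was 7.69 in Yap KO stimulated and 7.77 in WT stimulated cells, against 0.123 in Yap KO unstimulated and 0.231 in WT unstimulated cells. The ratio of Itgav to Itgb1, another of its partners, lay between 0.0480 and 0.0867 in all 4 libraries.

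For the alpha-4 chain, the ratio to Itgb7 was 0.197 in Yap KO stimulated and 0.121 in WT stimulated cells, against 0.0198 in Yap KO unstimulated and 0.0335 in WT unstimulated cells. The ratio of Itga4 to Itgb1 was 0.0218 in Yap KO stimulated and 0.0311 in WT stimulated cells, against 0.154 in Yap KO unstimulated and 0.514 in WT unstimulated cells. The beta-1 gene thus stood further above Itga4 in stimulated cells, and the beta-7 gene stood less far above it. Itgae over Itgb7 was 0.0374, 0.0268, 0.0244 and 0.0659 in Yap KO stimulated, WT stimulated, Yap KO unstimulated and WT unstimulated cells. RNA ratios say nothing on how many dimers were at the surface.

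Between genotypes 3 of the 10 genes were called higher in Yap KO cells, Itgax, Itgb1 and Itgb3, beside 0.838% of all tested genes. None was called lower by edgeR, beside 0.559% of all tested genes. At an unadjusted p of 0.05, 4 were higher and 1 was lower, beside 6.06% and 5.56% of all tested genes. DESeq2 called 3 higher and 0 lower, beside 0.617% and 0.572%. The median log2 difference was 0.23 over the 10 genes and 0.02 over all tested genes. These p-values set 1 cell source per genotype against the spread over 4 libraries, which may be technical, and say nothing on the spread between animals.

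Itgax differed most, with a log2 fold change of 2.17 ± 0.27 (edgeR adjusted p = 0.007). It had 7.41 CPM in Yap KO stimulated against 1.08 CPM in WT stimulated cells, 6.42-fold higher, and 23.4 CPM in Yap KO unstimulated against 6.28 CPM in WT unstimulated cells, 3.68-fold higher. It was the only one of the 10 genes at least 2-fold higher in both states with counting intervals that excluded no difference, beside 0.955% of all tested genes. None was 2-fold lower in both states, beside 0.883%. With no filter beyond 1 read, the adjusted p was 0.0871.

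Itgb1 was 1.46-fold higher in Yap KO stimulated than in WT stimulated cells and 2.12-fold higher in Yap KO unstimulated than in WT unstimulated cells (log2 fold change 0.82 ± 0.15, edgeR adjusted p = 0.0361). Itgb3 was 1.53-fold and 2.20-fold higher in the same comparisons (log2 fold change 0.97 ± 0.17, edgeR adjusted p = 0.0337). Both calls were lost when libraries were scaled to total reads in genes, at adjusted p = 0.0684 for Itgb1 and 0.0636 for Itgb3. They were also lost with no filter, at 0.236 and 0.198, and without genes that lie opposite another gene, at 0.0839 and 0.0729.

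Summed levels of markers of some other cell types were also higher in Yap KO cells. The 7 gamma-delta and type 17 T cell markers summed to 52.2 CPM in Yap KO stimulated against 29.3 CPM in WT stimulated cells, and to 429 CPM in Yap KO unstimulated against 259 CPM in WT unstimulated cells. Most of each sum was Trdc, at 33.5 against 22.6 CPM in stimulated and 351 against 232 CPM in unstimulated Yap KO and WT cells. Trdc itself was not called for genotype (edgeR adjusted p = 0.0592). Of the 7, 6 were higher in Yap KO cells in both states, and 1 of these, Tcrg-C1, had 1 read against 0 in stimulated cells. The 2 called higher were Sox13 and Il23r, beside 0.838% of all tested genes. The B cell markers Cd79a, Cd79b and Ms4a1, all 3 higher in Yap KO cells in both states, summed to 13.4 against 7.15 CPM in stimulated Yap KO and WT cells and to 35.4 against 26.8 CPM in unstimulated Yap KO and WT cells. The 3 NK cell markers summed to 71.6 against 54.6 CPM in stimulated and to 118 against 53.9 CPM in unstimulated Yap KO and WT cells. Of these, 2 were higher in Yap KO cells in both states, and 1 of the 2, Ncr1, had 1 read against 0 in stimulated cells. Eomes, which activated CD8 T cells also express, made up most of the NK cell sum, with 71.6 against 54.5 CPM in stimulated and 115 against 51.7 CPM in unstimulated Yap KO and WT cells. Of the 11 dendritic and myeloid markers 3 were higher in Yap KO cells in both states. None of these B cell, NK cell, dendritic and myeloid markers was called for genotype, beside 0.838% higher and 0.559% lower of all tested genes. Col1a2, a stromal marker, had 44 reads in Yap KO unstimulated against 0 in WT unstimulated cells. The part of these markers in the Itgax, Itgb1 and Itgb3 differences was not tested.

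**Figure D4:**
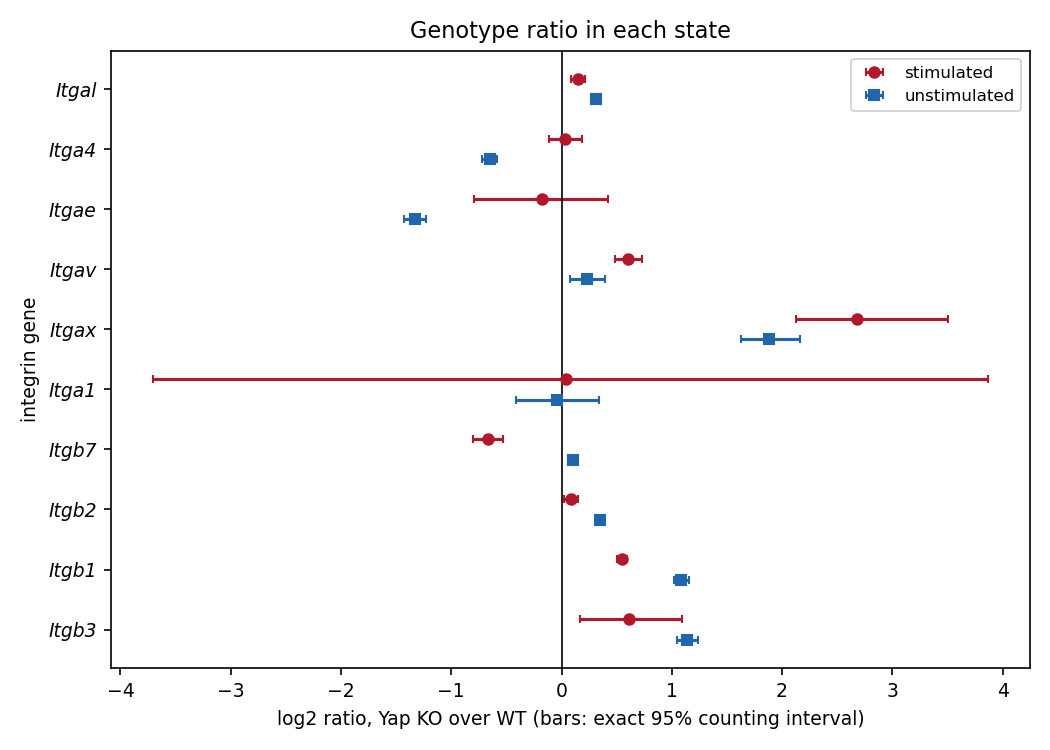
The plot gives the log2 ratio of Yap KO over WT for each integrin gene in stimulated and in unstimulated cells, with bars for exact 95% counting intervals. Itgax lies furthest right in both states, at 2.68 and 1.88, and Itgae in unstimulated cells lies furthest left, at -1.33.

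In unstimulated cells 3 of the 10 genes were at least 2-fold higher in Yap KO cells, Itgax, Itgb1 and Itgb3, beside 4.10% of all tested genes, and 1 was lower, Itgae, beside 3.26%. Itgae had 48.4 CPM in Yap KO unstimulated against 122 CPM in WT unstimulated cells, 2.51-fold lower, with a log2 ratio of -1.33 (95% counting interval -1.43 to -1.23). In stimulated cells its log2 ratio was -0.18 (-0.80 to 0.42), and its genotype difference over both states missed the threshold (log2 fold change -1.02 ± 0.24, edgeR adjusted p = 0.0908). In stimulated cells 1 gene was 2-fold higher in Yap KO cells, Itgax, beside 3.08% of all tested genes, and none was 2-fold lower, beside 4.42%.

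Itga4 had a log2 ratio of Yap KO over WT of 0.03 (-0.12 to 0.18) in stimulated and -0.65 (-0.72 to -0.58) in unstimulated cells (edgeR adjusted p = 0.520 over both states). Neither LFA-1 chain was called for genotype. Itgal had log2 ratios of 0.15 (0.09 to 0.21) in stimulated and 0.32 (0.28 to 0.35) in unstimulated cells, and Itgb2 had 0.09 (0.02 to 0.15) and 0.35 (0.32 to 0.39), with edgeR adjusted p = 0.525 and 0.570. Itgav had 0.61 (0.49 to 0.73) in stimulated and 0.23 (0.08 to 0.40) in unstimulated cells (edgeR adjusted p = 0.306). Itga1 had -0.04 (-0.41 to 0.34) in unstimulated cells, and its 2 reads in each stimulated library gave an interval from -3.70 to 3.87.

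The size of the stimulation change was then set side by side in the genotypes, as the log2 ratio in Yap KO cells minus that in WT cells, with 1 library per group and no test. For Itgae it was -4.36 in Yap KO and -5.50 in WT cells, a difference of 1.15 (95% counting interval 0.57 to 1.72). Itgae was the 1 gene of the 10 whose ratio was at least 2-fold larger in Yap KO cells, beside 3.03% of all tested genes, and none had a ratio 2-fold smaller, beside 4.70%. For Itga4 the ratios were -1.71 and -2.39, a difference of 0.68 (0.52 to 0.85). For Itgax they were -1.65 and -2.45, a difference of 0.80 (0.13 to 1.48). All 3 of these alpha genes thus fell by a smaller factor in Yap KO cells.

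The beta genes and the alpha gene Itgal differed in the other direction. Itgb7 had a log2 ratio of -5.02 in Yap KO and -4.25 in WT cells, a difference of -0.77 (-0.91 to -0.64), and Itgb3 had -4.62 and -4.09, a difference of -0.53 (-0.98 to -0.08). Itgb1, which rose in both, had 1.11 in Yap KO and 1.65 in WT cells, a difference of -0.54 (-0.62 to -0.46). Itgb2 differed by -0.27 (-0.34 to -0.19) and Itgal by -0.17 (-0.23 to -0.10). Itgav rose more in Yap KO cells, with 1.32 against 0.95, a difference of 0.37 (0.18 to 0.57). These intervals cover counting error only.

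Of the 17 other integrin genes, 9 passed the filter. After stimulation 1 was called higher and 3 lower, beside 33.3% and 34.1% of all tested genes. Itga3, a laminin receptor chain, had 96 reads in Yap KO stimulated and 70 in WT stimulated cells, against 43 in Yap KO unstimulated and 17 in WT unstimulated cells (log2 fold change 1.82 ± 0.35, edgeR adjusted p = 0.00147). Itga6, also a laminin receptor chain, had 525 and 603 reads in Yap KO and WT stimulated cells, against 2126 and 2375 reads in Yap KO and WT unstimulated cells (log2 fold change -1.70 ± 0.14, edgeR adjusted p = 6.06e-06). Itga2, a collagen receptor chain, had 0 reads in both stimulated libraries, against 113 in Yap KO unstimulated and 38 in WT unstimulated cells, at least 28.0-fold lower in Yap KO and 11.3-fold lower in WT cells against the floor of 3 counts per library. Itgad, a beta-2 partner with 26.3% of its 31-base words in another gene, was the third (log2 fold change -3.27 ± 0.69, edgeR adjusted p = 0.00227).

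Itga5, Itga7, Itga2b, Itga10 and Itga9 passed the filter without a stimulation call. Itga5, the fibronectin receptor chain that pairs with beta-1, had 112 and 143 reads in Yap KO and WT stimulated cells, against 193 and 79 reads in Yap KO and WT unstimulated cells (edgeR adjusted p = 0.476). Itga9, another beta-1 partner, was the 1 gene of this list called for genotype. The call was for a higher level in Yap KO cells, beside 0.838% of all tested genes. It had 36 reads in Yap KO stimulated against 6 in WT stimulated cells, and 115 in Yap KO unstimulated against 2 in WT unstimulated cells (log2 fold change 4.05 ± 0.62, edgeR adjusted p = 0.0158). Itga7 had 19 against 45 reads in stimulated and 23 against 73 reads in unstimulated Yap KO and WT cells (edgeR adjusted p = 0.127). Itga2b and Itga10 had at most 25 reads in any library.

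Of 13 integrin ligand genes, 7 passed the filter. After stimulation 5 were called lower and 1 higher, beside 34.1% and 33.3% of all tested genes. Cdh1, which encodes E-cadherin, had 3 reads in Yap KO stimulated and 1 in WT stimulated cells, against 509 in Yap KO unstimulated and 76 in WT unstimulated cells (log2 fold change -6.71 ± 0.46, edgeR adjusted p = 6.97e-07). Neither stimulated count was above the floor of 3 counts, so the size of this decrease is limited by depth. Cdh1 was also called higher in Yap KO cells (2.54 ± 0.32, edgeR adjusted p = 0.004), beside 0.838% of all tested genes. Unstimulated Yap KO cells had 19.6 CPM against 3.32 CPM in unstimulated WT cells. For stimulated cells the counting interval of its log2 ratio ran from -1.97 to 7.38, so the difference rests on the unstimulated libraries. There this ligand was higher in Yap KO cells and its receptor gene Itgae was lower. F11r, an adhesion molecule of cell junctions that LFA-1 binds, had 30 reads in Yap KO stimulated and 42 in WT stimulated cells, against 0 in both unstimulated libraries, at least 13.5-fold higher in Yap KO and 15.7-fold higher in WT cells. Vcam1, Fn1 and Col1a1 had at most 20 reads in any library and were called lower, and so was Icam2, an LFA-1 ligand of lymphocytes and vessels (-1.23 ± 0.14, edgeR adjusted p = 5.95e-05). Icam1, the main LFA-1 ligand, had 169.5 and 165 CPM in Yap KO and WT stimulated cells, against 183 and 186 CPM in Yap KO and WT unstimulated cells (edgeR adjusted p = 0.312), and is given, like Icam2, outside the rule for named genes.

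Of 19 genes for inside-out activation, 17 passed the filter. After stimulation 14 were called lower and 1 higher, beside 34.1% and 33.3% of all tested genes. The median log2 change of the 17 was -1.61, beside -0.05 over all tested genes. Rasgrp2, the exchange factor that loads Rap1 with GTP, had 6.73 and 10.5 CPM in Yap KO and WT stimulated cells, against 254 and 229 CPM in Yap KO and WT unstimulated cells (log2 fold change -4.82 ± 0.20, edgeR adjusted p = 1.38e-07). Rasa3, which turns Rap1 off, fell as well, to 56.6 and 49.1 CPM in Yap KO and WT stimulated cells, against 710.3 and 569 CPM in Yap KO and WT unstimulated cells (-3.59 ± 0.13, edgeR adjusted p = 7.13e-08). The list thus held both an activator and an inhibitor of Rap1 among its strongest decreases. The adaptors Fyb and Skap1, which link the T cell receptor to integrins, fell by 3.33 and 2.65 on the log2 scale (edgeR adjusted p = 2.44e-07 and 5.66e-07).

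Tln2, a talin gene, was the one called higher, at 16 reads in Yap KO stimulated and 28 in WT stimulated cells, against 6 in Yap KO unstimulated and 0 in WT unstimulated cells (edgeR adjusted p = 0.00928). The other talin gene, Tln1, named outside the rule, had 271 and 156 CPM in Yap KO and WT stimulated cells, against 1119 and 964 CPM in Yap KO and WT unstimulated cells (log2 fold change -2.34 ± 0.17, edgeR adjusted p = 2.41e-06). Rasgrp2, Fyb, Skap1 and Tln1 lie partly opposite another gene. None of the 17 was called for genotype by edgeR, beside 0.838% higher and 0.559% lower of all tested genes, or by DESeq2, beside 0.617% and 0.572%. At an unadjusted p of 0.05, 2 were higher and 0 lower, beside 6.06% and 5.56% of all tested genes.

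Of 21 adaptor genes that join integrins to actin or carry their signals, 17 passed the filter. After stimulation 9 were called lower and 2 higher, beside 34.1% and 33.3% of all tested genes. Vcl, the gene of vinculin, had 24.8 and 16.5 CPM in Yap KO and WT stimulated cells, against 9.43 and 5.45 CPM in Yap KO and WT unstimulated cells (log2 fold change 1.49 ± 0.20, edgeR adjusted p = 0.000141). It shares 2090 exon bases, 25.5% of its exon length, with Ap3m1 on the opposite strand. With the strand setting not given, reads of these genes cannot be told apart where their exons overlap. Actn4, an actin crosslinker of the alpha-actinin family, rose by less, with 535 and 559.6 CPM in Yap KO and WT stimulated cells, against 331 and 306 CPM in Yap KO and WT unstimulated cells (0.78 ± 0.12, edgeR adjusted p = 0.000414). Zyx, Flna, Pxn and Ptk2b, which encode zyxin, filamin A, paxillin and the kinase Pyk2, fell by 2.55, 2.47, 1.77 and 1.39 on the log2 scale, with edgeR adjusted p of 8.18e-06 or less. For genotype edgeR called 0 of the 17, beside 0.838% higher and 0.559% lower of all tested genes. At an unadjusted p of 0.05, 3 were higher and 1 lower, beside 6.06% and 5.56% of all tested genes. DESeq2 called 1 higher and 0 lower, beside 0.617% and 0.572%.

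**Figure D5:**
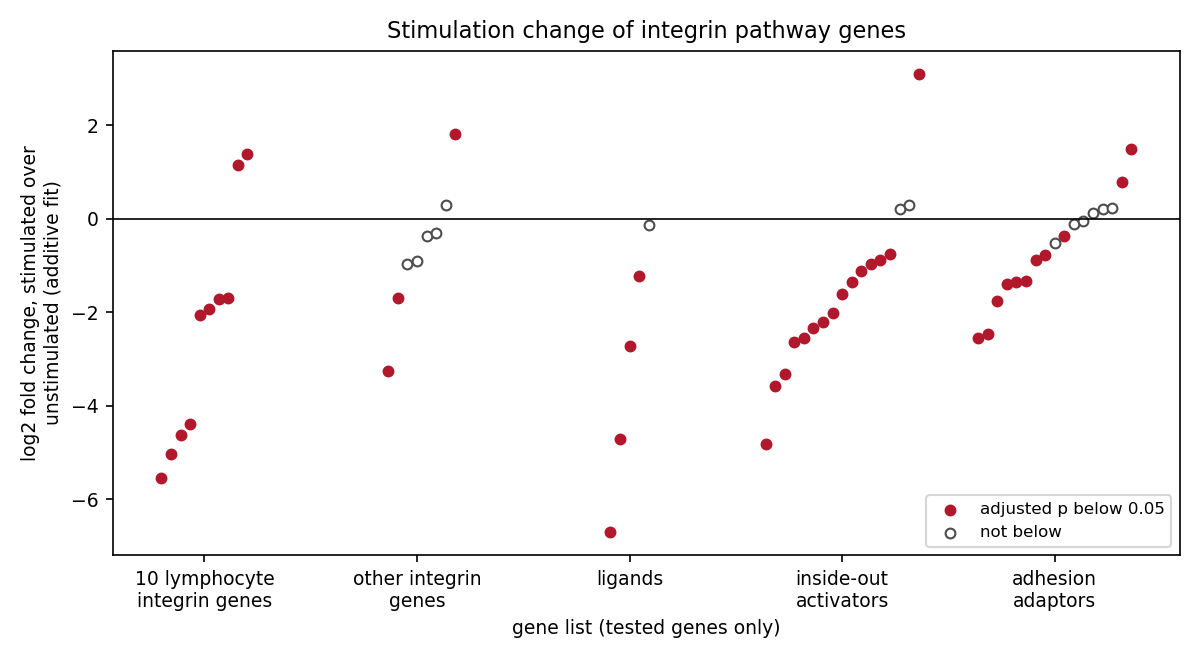
Each point is a tested gene, placed by its log2 fold change of stimulated over unstimulated in the additive fit, in 5 lists, with filled points for an adjusted p below 0.05. Genes with 0 reads in both libraries of a state (Itga2, Col1a1 and F11r) are left out. The lowest points are Cdh1 at -6.71 and Itga1 at -5.56, and the inside-out activators lie below 0 apart from 3 genes.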

How the data were processed

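RNA was sequenced from 4 cultures, and the authors deposited raw read counts per Ensembl gene for each library, whole numbers with no normalization. Per the submitters' processing notes, reads were placed on mm9. No source used here gives the aligner, annotation release or strand setting. Positions and symbols (50462 of 50686 identifiers) come from GENCODE on GRCm38, and promoters from RefSeq. The 5 summary entries were left out; reads in genes made up 35.6 to 39.7% of all entries.

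Genes were filtered with filterByExpr by state (minimum count 10), scaled by TMM (factors 0.968 to 1.04) and tested with edgeR 4.0.16 in R 4.3.3 (quasi-likelihood F test, genotype and state additive, Benjamini-Hochberg, 0.05). The fit had 7.98 prior degrees of freedom. Ratios of 1 library over another have no p-value; they used a prior count of 2 and exact 95% Clopper-Pearson intervals, and differences of ratios a normal interval. Intervals and the floor of 3 counts, 0.115 to 0.155 CPM, cover counting error only. Alternatives included DESeq2 1.42.0. The members and lists were chosen with earlier results of these data known. Named were all 10 members, every other integrin gene that passed the filter, and up to 4 called genes per direction, plus genotype calls, in each other list. Of the cell type markers, 1 is not reported here.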

Additional observations from a re-analysis of the deposited data

Results flagged for a closer look

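Itgb7 was the 1 gene of the 10 whose genotype difference had opposite signs in stimulated and unstimulated cells with a counting interval that excluded no difference in each state. It had a log2 ratio of Yap KO over WT of -0.67 (95% counting interval -0.80 to -0.53) in stimulated cells and 0.11 (0.08 to 0.13) in unstimulated cells. The unstimulated ratio is small, 1.08-fold, and depends on the scaling. On the log2 scale it was 0.081 with relative log expression size factors and 0.085 with total reads. The median of all tested genes in the same comparison was 0.03. Each state has 1 library per genotype, and the difference was not tested.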

How the results depend on the processing

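No separate paired analysis was run, because each genotype holds a single pair of 1 stimulated and 1 unstimulated library. The genotype term of the additive fit already sets stimulated against unstimulated within each cell source. The stimulation call of each of the 10 genes kept its direction and its side of the threshold in all 7 or 8 alternatives in which the gene was tested. Leaving out genes that lie opposite another gene removed Itga4 and Itgav from the test, which left 1 integrin gene called higher after stimulation and 3253 and 3335 genes called higher and lower in all. Genotype calls moved more. Integrin genes called higher in Yap KO cells numbered 1 with scaling to total reads, 0 with no filter and 1 without opposite genes. Over all genes, those called higher in Yap KO cells numbered 87 with scaling to total reads, 23 with no filter, 65 at a mean of at least 10 CPM and 70 without opposite genes, beside 129. Genes called lower numbered 56, 18, 56 and 41 with total reads, no filter, 10 CPM and without opposite genes, beside 86. The filter at 10 CPM removed Itga1 and Itgax. With the older quasi-likelihood estimate, chosen after seeing the data, 3 integrin genes were called higher in Yap KO cells, among 107 genes in all. Over the length of the longest coding transcript, Itgb1 made up 7.75% of the beta level in Yap KO unstimulated cells. Scaling to total reads put the median stimulation change of all genes at -0.13, beside -0.05. With 1 library per group, no spread between animals can be measured, and at 2 reads the stimulated level of Itga1 is limited by depth.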
